A study of Mus musculus with 2 samples.

Results

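The data were read for 10 genes that take glucose into the cell and carry it through glycolysis to lactate, Slc2a1, Hk2, Hk3, Pfkp, Pfkl, Aldoa, Pgk1, Eno1, Pkm and Ldha. They were chosen by name as rows of a single-cell mRNA count matrix of 25909 genes, and all 10 were in the matrix. The study asked what the transcription factor Egr2 does in liver macrophages during metabolic dysfunction-associated steatohepatitis (MASH), a fatty liver disease with inflammation and scarring.

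The matrix held liver cells of 4 mice, sorted as positive for CD45.2 and CD11b and negative for CD90.2, B220, NK1.1 and Siglec F, which leaves mainly neutrophils, monocytes, macrophages and dendritic cells. Each mouse carried its own hashtag, an antibody-borne tag, and all cells were pooled into 1 library on the BD Rhapsody system with the TAS-Seq protocol. An Egr2fl/fl mouse and a Lyz2Cre/+.Egr2fl/fl mouse were fed a normal diet (ND), and another Egr2fl/fl mouse and another Lyz2Cre/+.Egr2fl/fl mouse were kept for 7 weeks on CDA-HFD, a fat-rich diet that lacks choline and holds defined amino acids. All 4 mice carried floxed Egr2, and Cre driven by the myeloid gene Lyz2 removes it only in cells that have expressed Lyz2. With 1 mouse per group no test was run, and a difference between mice cannot be told apart from one of diet or genotype. Values of the 4 mice are given below in the order ND Egr2fl/fl, ND Lyz2Cre/+.Egr2fl/fl, CDA-HFD Egr2fl/fl and CDA-HFD Lyz2Cre/+.Egr2fl/fl. Levels are in CPM, a gene's counts per 1000000 of all counts summed across the cells of a class in a mouse. Intervals are 95% Poisson intervals for levels, 95% exact binomial intervals for ratios and shares, and cover counting error only.

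Glycolysis splits glucose into pyruvate and yields ATP without oxygen. Slc2a1 encodes the glucose transporter GLUT1, hexokinases (Hk2, Hk3) trap glucose as glucose-6-phosphate, and phosphofructokinase (Pfkp, Pfkl) commits it to the pathway. Aldolase A, phosphoglycerate kinase 1, enolase 1 and the muscle-type pyruvate kinase lead on to pyruvate, and lactate dehydrogenase A turns pyruvate into lactate. In neutrophils and activated macrophages glycolysis is a main source of energy, and several of its genes are known targets of the hypoxia-inducible factor HIF-1, which binds DNA at the core letters ACGTG.

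The stretches upstream of the start sites were read for that core from RefSeq promoters of the build GRCm38.p6, 250 bases before each start, on both strands, where CACGT is the core read from the other strand and CACGTG holds both in overlap. All 10 genes were matched, with 16 start sites, of which 8 held the core. It lay upstream of at least 1 start of 7 genes, Slc2a1, Hk2, Hk3, Aldoa, Pgk1, Pkm and Ldha. None of the windows of Pfkp, Pfkl and Eno1 held it, which says only that these letters are not in these windows. Over all RefSeq windows of the same length 5444 of 32851 (16.6%) held the core, or 4998 of 27025 genes (18.5%). Below are the windows of Ldha (its first start) and Pgk1, which held 5 and 2 matches, and of the hexokinase pair Hk2 and Hk3, whose order across cell classes is set side by side further on, with the core in capitals. They lie at chr7:46845554-46845803 (plus strand), chrX:106186850-106187099 (plus strand), chr6:82774455-82774704 (minus strand) and chr13:55021386-55021635 (minus strand), each read 5′ to 3′ along its gene. A match is a description of the sequence and not a measured binding site.
Ldha: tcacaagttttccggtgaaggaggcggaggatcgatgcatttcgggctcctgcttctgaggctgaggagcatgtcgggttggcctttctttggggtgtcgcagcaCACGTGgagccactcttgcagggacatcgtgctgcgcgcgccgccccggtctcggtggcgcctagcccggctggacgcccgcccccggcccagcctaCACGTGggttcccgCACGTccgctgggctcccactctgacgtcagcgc
Pgk1: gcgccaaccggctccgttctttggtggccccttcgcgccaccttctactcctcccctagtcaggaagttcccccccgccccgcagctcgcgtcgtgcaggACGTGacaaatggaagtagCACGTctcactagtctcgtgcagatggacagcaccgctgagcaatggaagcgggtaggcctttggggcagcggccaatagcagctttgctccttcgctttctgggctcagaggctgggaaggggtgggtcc
Hk2: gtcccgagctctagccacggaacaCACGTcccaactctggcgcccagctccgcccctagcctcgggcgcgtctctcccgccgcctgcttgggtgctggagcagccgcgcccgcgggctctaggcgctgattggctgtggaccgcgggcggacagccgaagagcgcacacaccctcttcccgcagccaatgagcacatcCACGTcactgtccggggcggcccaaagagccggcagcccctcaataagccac
Hk3: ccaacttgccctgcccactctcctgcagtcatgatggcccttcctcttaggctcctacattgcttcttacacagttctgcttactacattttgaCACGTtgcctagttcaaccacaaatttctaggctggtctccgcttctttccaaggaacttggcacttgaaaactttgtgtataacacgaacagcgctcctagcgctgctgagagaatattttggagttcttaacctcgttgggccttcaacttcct

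After removal of 1392 barcodes named as doublets and of 10 cells with over 25% mitochondrial counts, the mice held 1723, 1590, 5885 and 6186 cells with 27840300 to 90124521 counts per mouse, and median counts per cell from 13168 to 16459. No barcode was shared between mice. 3000 cells of each ND mouse and 9000 of each CDA-HFD mouse were loaded. Egr2, the targeted gene, stood at 13.3, 5.85, 49.4 and 18.2 CPM over all cells, lower in the Lyz2Cre/+.Egr2fl/fl mouse on either diet.

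Cells were assigned to classes by marker genes, none of them a glycolysis gene, and a class is called "-like" since it rests on these markers alone. A cell joined the class for which it had counts of at least 50% of the markers and more than for any other class. The 10 classes followed were neutrophil-like (2057 cells), Ly6Chi monocyte-like (3989), Ly6Clo monocyte-like (1438), Timd4+ Kupffer-like (1550), Timd4- Kupffer-like (362), lipid-associated macrophage-like (992, LAM-like in the plots), Slc7a11 macrophage-like (340), Cd209a+ dendritic cell-like (1007, DC-like in the plots), Ccr7+ dendritic cell-like (338) and Xcr1+ dendritic cell-like (249). A further 2762 cells (18.0%) joined none. Of the Cd209a+ dendritic cell-like cells 57.3% had just the number of markers needed, against 46.0% of the Ly6Clo monocyte-like, 102 of the 340 Slc7a11 macrophage-like and 1.16% of the Timd4+ Kupffer-like cells. In most of the 10 classes the median cell also had counts of 1 or 2 markers of another class, and the median Timd4+ Kupffer-like cell had 3 of the 5 Ly6Clo monocyte markers. Class and mouse groups under 50 cells were left out, so that Timd4+ Kupffer-like cells were read on ND only (27 cells in both CDA-HFD mice together) and lipid-associated and Slc7a11 macrophage-like cells on CDA-HFD only (10 cells each on ND). Only neutrophil-like, both monocyte-like and Cd209a+ dendritic cell-like classes had enough cells in all 4 mice.

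Slc7a11 macrophage-like cells of the CDA-HFD mice had the highest levels of 6 of the 10 genes, Pfkl, Aldoa, Pgk1, Eno1, Pkm and Ldha, none of which overlapped the next class in the order of mean levels. The share of all genes that are highest or lowest in a class was not computed. Slc7a11 macrophage-like cells were read in 2 mice, other classes in up to 4, and ranges of fewer mice overlap less easily. This class is marked by Slc7a11, a cystine transporter, and by Srxn1, Il1rn, Ccl24, F10 and F7. Ccr7+ dendritic cell-like cells, the mature form, lay at the other end, with the lowest mean of Hk2, Hk3, Eno1 and Ldha. Hk3 and Slc2a1 followed an order of their own, with Hk3 highest in Timd4+ Kupffer-like and neutrophil-like cells and Slc2a1 highest in neutrophil-like and Slc7a11 macrophage-like cells.

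**Figure D1:**
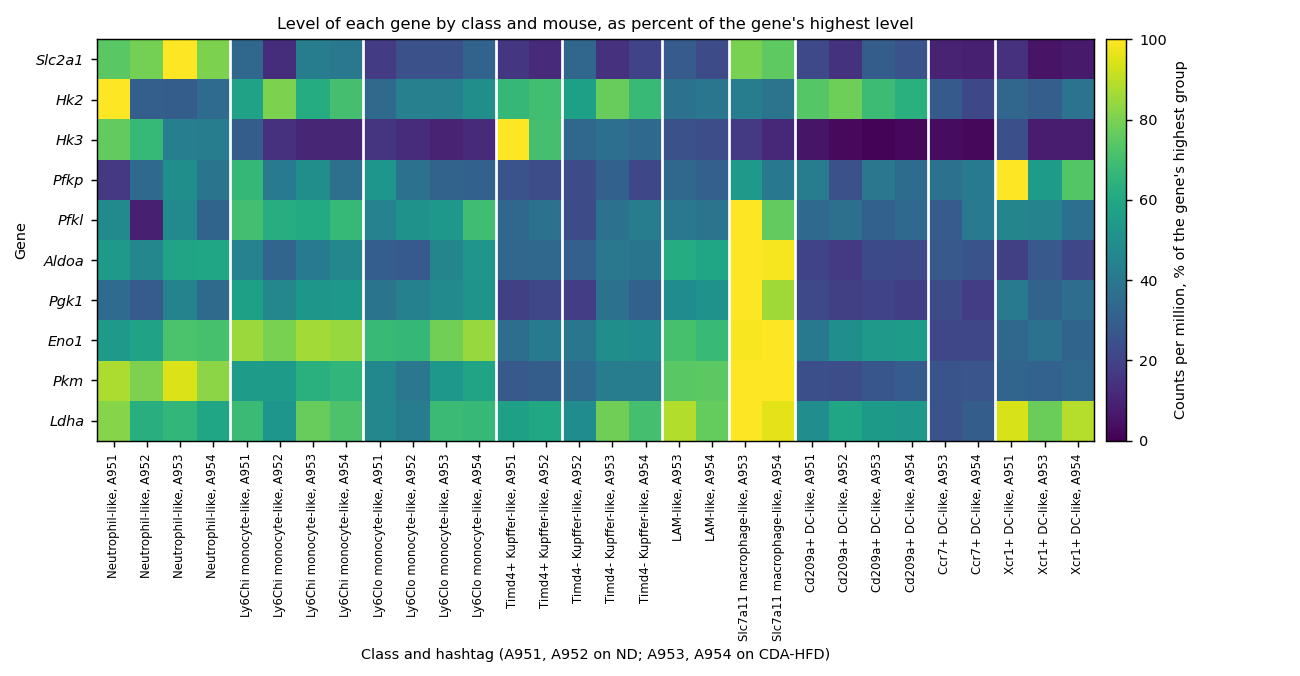
Level of each gene (rows) in each class and mouse of at least 50 cells (columns, hashtags A951 to A954 in the order of mice given above), coloured as percent of the gene's highest CPM. The 6 genes Pfkl, Aldoa, Pgk1, Eno1, Pkm and Ldha are highest in the Slc7a11 macrophage-like columns, and Hk3 in the Timd4+ Kupffer-like column of the ND Egr2fl/fl mouse.

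Slc2a1, the transporter (chr4:119108711-119137983), was at 54.0, 57.5, 72.6 and 58.2 CPM in neutrophil-like cells and at 58.0 and 54.5 CPM in Slc7a11 macrophage-like cells of the CDA-HFD mice. Both classes overlapped each other and lay above all others, which ranged from 3.74 CPM in Xcr1+ dendritic cell-like cells of the CDA-HFD Egr2fl/fl mouse to 30.7 CPM in Ly6Chi monocyte-like cells of the same mouse. Against the other cells of its mouse, the neutrophil-like level was 3.91, 5.50, 2.91 and 2.59 times as high, and the Slc7a11 macrophage-like level 2.20 and 2.31 times. In Timd4+ Kupffer-like cells it was at 11.4 and 9.04 CPM and in Ccr7+ dendritic cell-like cells at 7.03 and 6.41 CPM, both lower than in the other cells of the same mouse. Since cells differ in depth, each was thinned to 3000 counts, at which 12.3% of neutrophil-like cells (interval 11.0 to 13.8; 15.8% unthinned, median 4121 counts) and 12.6% of Slc7a11 macrophage-like cells (interval 9.31 to 16.7; 34.7% unthinned, median 17038 counts) had a Slc2a1 count. T or NK cell-like cells, 144 in all, had 2.08% (interval 0.432 to 5.97; 6.25% unthinned, median 7347 counts), Ccr7+ dendritic cell-like cells 2.37% and Xcr1+ dendritic cell-like cells 1.61%. T cells use Slc2a1 themselves, so none of these shares measures the background from free RNA.

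Slc2a3, which encodes the high-affinity transporter GLUT3, was at 317, 309, 241 and 205 CPM in neutrophil-like cells, 24.1 to 37.0 times the level of the other cells. Slc2a1 therefore held 14.6% to 23.2% of the summed Slc2a1 and Slc2a3 counts in neutrophil-like cells, against 82.1% to 86.7% in Ly6Chi monocyte-like cells and 94.2% and 86.0% in Slc7a11 macrophage-like cells.

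Of the hexokinases, Hk3 (chr13:55005985-55021385) had the widest range of class means of the 10 genes, with a 31.0-fold span from Ccr7+ dendritic cell-like to Timd4+ Kupffer-like cells. Timd4+ Kupffer-like cells had 229 CPM (interval 223 to 236) in the ND Egr2fl/fl mouse and 161 CPM (interval 156 to 167) in the ND Lyz2Cre/+.Egr2fl/fl mouse. Neutrophil-like cells had 175, 153, 98.4 and 97.4 CPM, which overlapped the Kupffer-like range. Timd4- Kupffer-like cells followed at 77.2, 83.6 and 78.5 CPM in the 3 mice with enough cells, and lipid-associated macrophage-like cells at 56.5 and 54.6 CPM. Cd209a+ dendritic cell-like cells were near the bottom, at 13.1, 5.91, 2.54 and 5.13 CPM. On thinned cells 41.7% of Timd4+ Kupffer-like (84.7% unthinned, median 25016 counts) and 18.5% of neutrophil-like cells (24.0% unthinned) had an Hk3 count, against 2.78% (interval 0.762 to 6.96; 3.47% unthinned) of T or NK cell-like cells. Whether T or NK cell-like cells hold Hk3 themselves was not tested, and 42.4% of them had just the number of markers needed. The shares of 1.19% in Cd209a+ and 2.37% in Ccr7+ dendritic cell-like cells were no higher than that of T or NK cell-like cells. Those of Ly6Chi monocyte-like (6.62%), Ly6Clo monocyte-like (5.22%) and Xcr1+ dendritic cell-like cells (6.83%) lay within the interval of that share, which rests on 144 cells. By level, T or NK cell-like cells had 3.44 CPM (interval 0.416 to 12.4) in the ND Egr2fl/fl mouse, the only one with at least 50 of them. In the same mouse these 3 classes lay above that interval, at 67.7 (58.4 to 78.0), 34.9 (25.7 to 46.4) and 56.4 CPM (45.8 to 68.8). Hk2 (chr6:82725025-82774454), a hexokinase of muscle, fat and activated immune cells, varied less, with class means from 16.6 to 47.3 CPM. Its mean was highest in Cd209a+ dendritic cell-like cells, at 49.1, 51.9, 45.7 and 42.3 CPM, and overlapped with Timd4+ Kupffer-like (44.4 and 46.5 CPM), Ly6Chi monocyte-like (38.4 to 53.4 CPM) and Timd4- Kupffer-like cells (37.9 to 51.1 CPM). It was lowest in Ccr7+ dendritic cell-like cells, at 18.7 and 14.4 CPM.

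**Figure D2:**
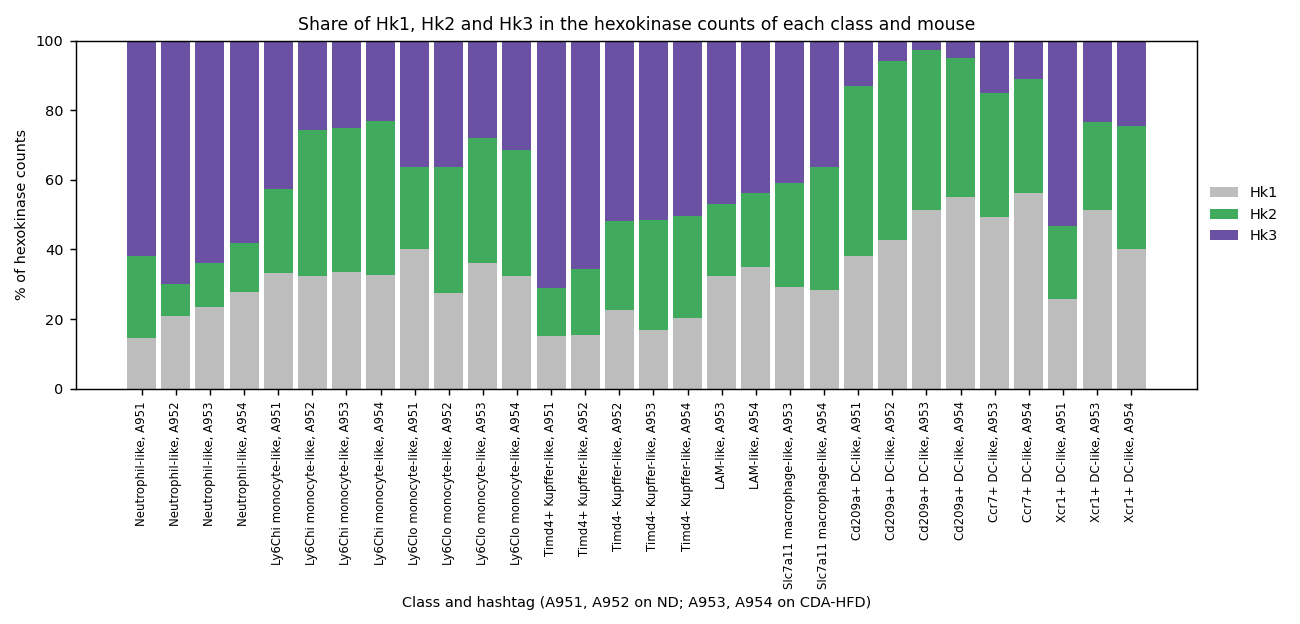
Share of the summed Hk1, Hk2 and Hk3 counts that each gene holds (y axis, percent) as stacked bars by class and mouse (x axis, hashtags A951 to A954 in the order of mice given above). Hk3 held 71.1% and 65.7% in Timd4+ Kupffer-like cells, 58.2% to 69.9% in neutrophil-like cells and 2.56% to 13.1% in Cd209a+ dendritic cell-like cells.

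Together with Hk1, the hexokinase found in most tissues, Hk3 held 71.1% (interval 69.9 to 72.3) and 65.7% (interval 64.3 to 67.1) of the counts of the 3 genes in Timd4+ Kupffer-like cells. In neutrophil-like cells the share was 61.8%, 69.9%, 63.8% and 58.2%, and in Timd4- Kupffer-like cells 51.9%, 51.5% and 50.5%. It was 13.1%, 5.84%, 2.56% and 4.86% in Cd209a+ dendritic cell-like cells. The share does not rest on the total counts of a class. In the ND Lyz2Cre/+.Egr2fl/fl mouse it was higher in neutrophil-like than in Timd4+ Kupffer-like cells, whose intervals overlapped (63.1 to 76.1 and 64.3 to 67.1), while the CPM stood in the other order.

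Pfkp (chr13:6579768-6648777), the platelet-type phosphofructokinase, was highest in Xcr1+ dendritic cell-like cells, at 109, 59.8 and 79.5 CPM in the ND Egr2fl/fl and the 2 CDA-HFD mice, and overlapped Ly6Chi monocyte-like cells (40.0 to 72.3 CPM). Timd4+ Kupffer-like cells had 28.3 and 25.8 CPM, 0.408 and 0.664 times the level of the other cells. Pfkl (chr10:77986947-78010083), the liver type, was highest in Slc7a11 macrophage-like cells, at 60.2 and 45.7 CPM, followed by Ly6Chi monocyte-like cells at 42.3, 37.6, 36.7 and 40.4 CPM. Neutrophil-like cells of the ND Lyz2Cre/+.Egr2fl/fl mouse had 5.32 CPM, which rested on 5 counts.

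The genes of the lower steps were more alike in their order. Aldoa (2 annotated gene entries, chr7:126795234-126800751 and chr7:126800790-126809108), which cuts fructose-1,6-bisphosphate into 3-carbon sugars, reached 1422 and 1405 CPM in Slc7a11 macrophage-like cells. Lipid-associated macrophage-like cells had 882 and 840 CPM and neutrophil-like cells 767, 660, 832 and 843 CPM, and these 2 classes overlapped. Cd209a+ dendritic cell-like cells had the lowest mean, from 240 to 317 CPM. Pgk1 (chrX:106187100-106203699), which makes the first ATP of the pathway, was at 469 and 402 CPM in Slc7a11 macrophage-like cells. It was at 266, 217, 249 and 250 CPM in Ly6Chi monocyte-like cells. Timd4+ Kupffer-like cells had 89.7 and 99.5 CPM. The intervals of its highest class (447 to 492 and 376 to 429) lay above the values of all other classes.

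Eno1 (chr4:150236721-150248879) was at 619 and 625 CPM in Slc7a11 macrophage-like cells. In Ly6Chi monocyte-like cells it lay between 498 and 539 CPM. Ccr7+ dendritic cell-like cells had 132 and 133 CPM, the lowest of all classes. Eno1 reads may be shared with the near-identical gene Eno1b, whose counts came to 27.4% to 28.2% of those of Eno1 in each mouse, so the level of Eno1 itself is uncertain. Summing both changed the 40 ratios of Eno1 between groups by 0.962 to 1.09 times.

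Pkm (chr9:59656368-59679375) makes the pyruvate. Slc7a11 macrophage-like cells had 933 and 935 CPM, neutrophil-like cells 821, 752, 885 and 771 CPM and lipid-associated macrophage-like cells 697 and 700 CPM, with no overlap between the 3 classes. Cd209a+ dendritic cell-like cells (220 to 272 CPM), Ccr7+ dendritic cell-like cells (241 and 247 CPM) and Timd4+ Kupffer-like cells (263 and 277 CPM) were lowest, and the first of these overlapped both others. Ldha (chr7:46841475-46855627) was at 499 and 478 CPM in Slc7a11 macrophage-like cells. Xcr1+ dendritic cell-like cells came next, at 468, 386 and 443 CPM, and overlapped lipid-associated macrophage-like cells (441 and 381 CPM). Ccr7+ dendritic cell-like cells had 128 and 146 CPM.

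**Figure D3:**
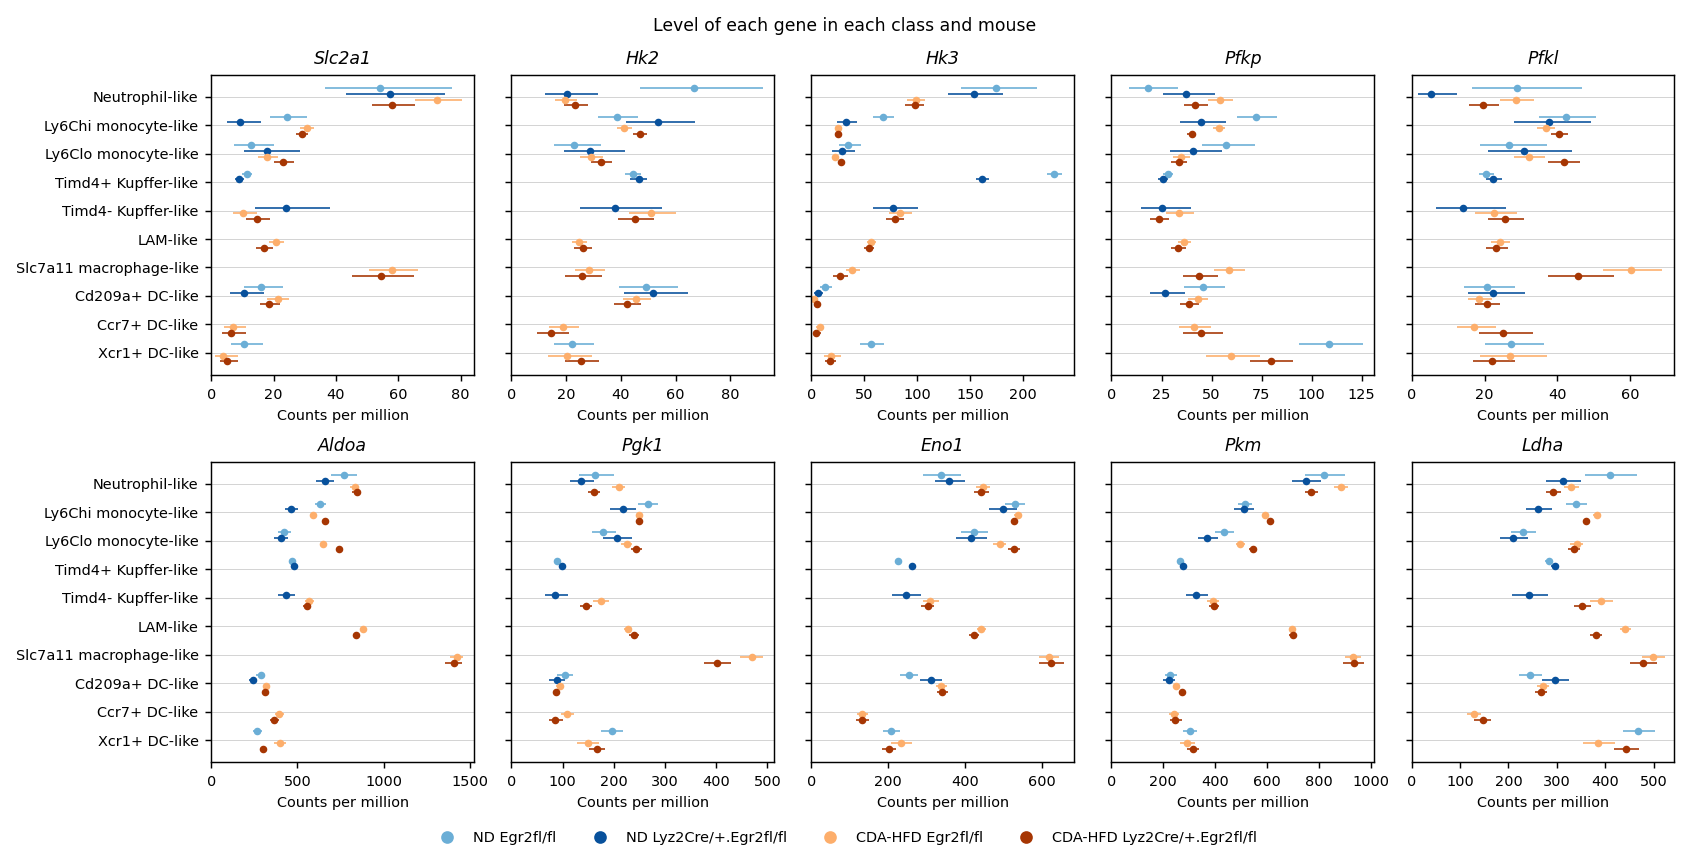
Level of each gene (x axis of each panel, CPM, linear) in each class (y axis), with 1 point per mouse and 95% Poisson intervals as bars. Aldoa, Pgk1 and Pkm stand highest in Slc7a11 macrophage-like cells of both CDA-HFD mice, and Hk3 in Timd4+ Kupffer-like and neutrophil-like cells.

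Each class was then set against the other cells of its mouse, and a gene counted as called where it had at least 100 counts over both groups and differed by at least 1.5-fold in the same direction in every mouse with the class. In Slc7a11 macrophage-like cells 4 of the 10 genes were higher, Slc2a1, Aldoa (2.23 and 2.19 times), Pgk1 (2.33 and 1.97 times) and Pkm (1.71 and 1.72 times), beside 3.68% of all genes tested. Eno1 was 1.42 and 1.44 times, Ldha 1.40 and 1.42 times and Pfkl 2.14 and 1.45 times as high, and none of the 10 was lower by that rule (16.4% of all genes). The median ratio of the 10 genes was 1.56 and 1.44, beside 0.886 and 0.870 over all genes. In these cells the hepatocyte markers, which come from liver parenchyma, summed to 370 CPM in the Egr2fl/fl mouse (all 5 in the matrix above 0) and 12.0 CPM in the Lyz2Cre/+.Egr2fl/fl mouse (4 of 5 above 0, Alb at 0). The erythroid markers summed to 0 and 46.6 CPM (0 and 1 of 4 above 0) and the platelet markers to 0.818 and 43.4 CPM (2 of 4 above 0 in either mouse). Between these mice the ratios of Pgk1 and Pfkl were lower in the second, and the part of these markers in them was not tested. Of the class, 71.2% fell into a Seurat cluster that was mostly lipid-associated macrophage-like, and no cluster was mostly of this class. By clusters, Aldoa, Pgk1 and Pkm were called in the lipid-associated macrophage-like class instead.

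In Ccr7+ dendritic cell-like cells 8 of the 10 genes were lower, all but Pfkp and Pfkl, beside 26.5% of all genes tested, and none was higher (8.51%). Their ratios ran from 0.139 for Hk3 in the Lyz2Cre/+.Egr2fl/fl mouse to 0.582 for Aldoa in the Egr2fl/fl mouse, and the median over the 10 genes was 0.460 and 0.416, beside 0.816 and 0.788 over all genes. In Timd4+ Kupffer-like cells Hk3 was higher, 3.52 and 3.32 times (15.9% of all genes higher), while Slc2a1, Pfkp and Pgk1 were lower (16.6%). The calls of Pfkp and Pgk1 were both lost with gates of 60%, Seurat clusters, TMM scaling and without cycling cells, and that of Pfkp also with at most 10% mitochondrial counts and with the 90% hashtag limit. Neutrophil-like cells had Slc2a1 called higher (8.91%) and none lower (28.4%), with Pkm at 2.66, 2.59, 1.63 and 1.42 times. Lipid-associated macrophage-like cells had Hk3 called higher, 1.74 and 1.73 times (6.12%), a call lost with means over cells, and none lower (12.3%).

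The remaining classes had few calls. In Cd209a+ dendritic cell-like cells Hk3 and Aldoa were lower (10.9% of all genes) and none was higher (3.97%). The same 2 genes were lower in Xcr1+ dendritic cell-like cells (11.4%), with none higher (5.68%). Of these 249 cells 55 were cycling, and without cycling cells Aldoa was no longer called, while Slc2a1, Pgk1, Eno1 and Pkm were called lower. The mice compared had 62, 59 and 103 of these cells, and 50 were needed. Without cycling cells fewer mice may have been left, so these calls may rest on fewer mice. The class could not be compared with Seurat clusters. With gates of 60%, which left 1 mouse with at least 50 of these cells, 7 of the 10 were called lower (Slc2a1, Hk2, Hk3, Pfkl, Aldoa, Eno1 and Pkm) and Pfkp higher. With the 90% hashtag limit, which left 2 mice, Pfkp was also called higher. In Ly6Chi monocyte-like cells Hk3 was lower, at 0.400, 0.253, 0.613 and 0.639 times (6.72%), a call lost with gates of 60% and with the 90% hashtag limit, and none was higher (1.52%). In Ly6Clo monocyte-like cells none was higher (1.60%) or lower (3.51%), and in Timd4- Kupffer-like cells none was higher (1.59%) or lower (4.65%). With gates of 60% and with the 90% hashtag limit Hk3 was called higher and Slc2a1 lower in Timd4- Kupffer-like cells. Their mean Hk3 level, 79.8 CPM, was above that of lipid-associated macrophage-like cells (55.6 CPM), where Hk3 was called. The former were also judged in the ND Lyz2Cre/+.Egr2fl/fl mouse, the latter on CDA-HFD only. Over the 10 classes the calls of the main setting made 7 of 100 gene and class pairs higher and 16 of 100 lower. By class 1.52% to 15.9% of all genes were higher and 3.51% to 28.4% lower, and both counts lie within these ranges. The classes hold different cells in each mouse's remainder, Timd4+ Kupffer-like cells being 42.4% and 49.9% of the ND mice and 0.170% and 0.275% of the CDA-HFD mice, so the same class was set against another mix on each diet.

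Over all cells of a mouse, 4 of the 10 genes were at least 1.5-fold higher on CDA-HFD than on ND in both genotypes, Slc2a1, Pgk1, Eno1 and Pkm, beside 7.04% of all genes tested. Slc2a1 was at 14.5, 12.0, 27.8 and 24.4 CPM, or 1.91 times as high on CDA-HFD in Egr2fl/fl and 2.02 times in Lyz2Cre/+.Egr2fl/fl mice. Pkm was 1.77 and 1.81 times, Eno1 1.57 and 1.56 times and Pgk1 1.55 and 1.80 times as high. The call of Pgk1 was lost with means over cells, and TMM scaling added Aldoa. Hk3 was lower, at 160, 123, 36.5 and 34.0 CPM, 0.228 and 0.276 times (15.8% of all genes were lower). The 10 genes had a median ratio of 1.30 and 1.42, beside 0.909 and 0.904 over all genes. The mix of cells differed between the diets too, with Timd4+ Kupffer-like cells, high in Hk3 and low in Slc2a1 and Pgk1, nearly all on ND. With the 4 classes present in all mice weighted equally, the ratios were 1.33 and 1.35 for Slc2a1, 1.09 and 1.14 for Pgk1, 1.17 and 1.16 for Eno1, 1.11 and 1.19 for Pkm and 0.511 and 0.705 for Hk3. A value over all cells thus cannot be told apart from a change in the mix of cells.

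**Figure D4:**
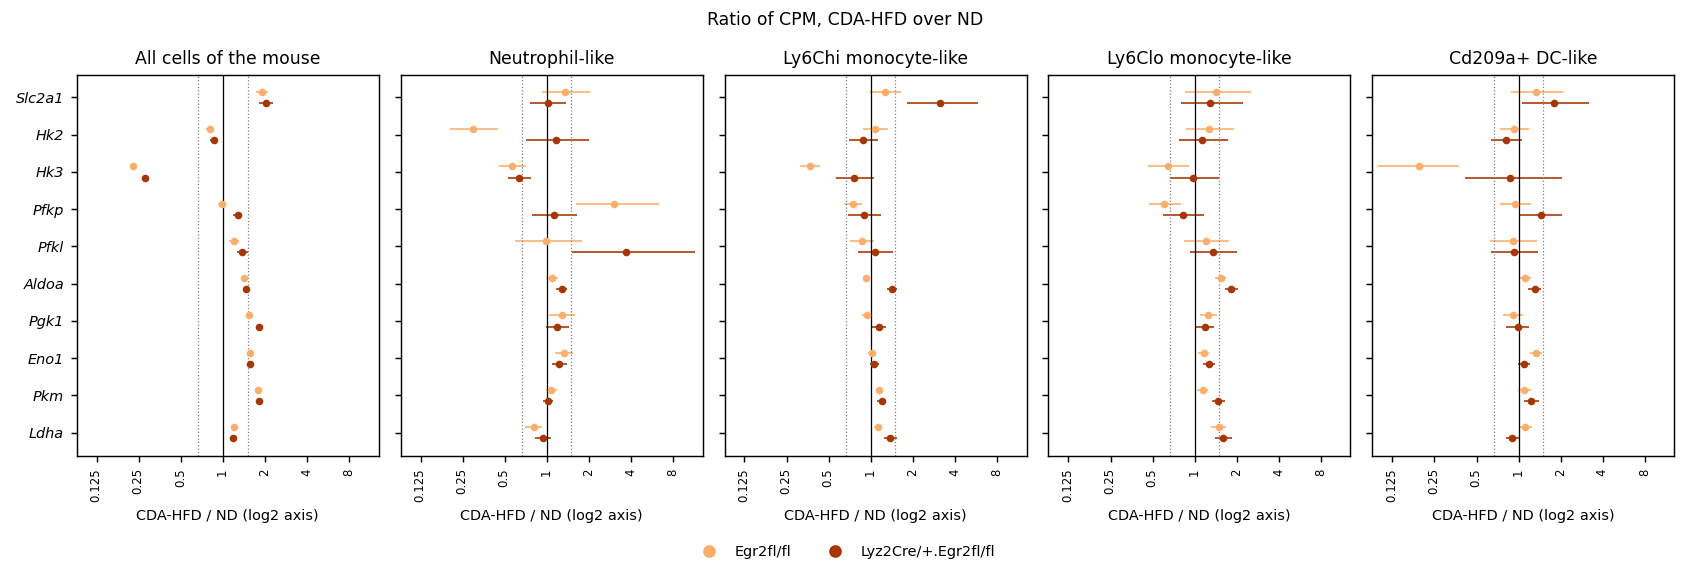
Ratio of CPM on CDA-HFD over ND (x axis, log2) for each gene over all cells and in the 4 classes present in all mice, in Egr2fl/fl (light) and Lyz2Cre/+.Egr2fl/fl (dark), with 95% intervals from counting. Dotted lines mark 1.5-fold either way, and within classes most points lie between them.

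Within these 4 classes 38 gene and class pairs had enough counts in both genotypes, and 1 was higher on CDA-HFD and 1 lower. Aldoa in Ly6Clo monocyte-like cells was at 423, 405, 648 and 740 CPM, 1.53 times (interval 1.40 to 1.67) and 1.83 times (interval 1.65 to 2.03) as high on CDA-HFD. The 2 CDA-HFD values lay above both ND values, and 5.47% of all genes in this class were higher by the same rule and 5.95% lower. Ldha in the same cells, at 230, 209, 341 and 335 CPM, was 1.48 and 1.60 times as high and just missed it. The call of Aldoa was lost with Seurat clusters, without cycling cells, without the 5% of cells with the highest doublet scores, and where at least 90% of a cell's hashtag counts had to be on its own hashtag.

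Hk3 in neutrophil-like cells was lower on CDA-HFD, 0.563 times (interval 0.452 to 0.708) in Egr2fl/fl and 0.635 times (interval 0.526 to 0.772) in Lyz2Cre/+.Egr2fl/fl mice, beside 5.61% of all genes lower in this class and 9.08% higher. The summed level of the 6 Kupffer programme markers moved with it, at 922, 731, 296 and 258 CPM in the neutrophil-like cells with all 6 above 0 in each mouse, and its part in this difference was not tested. The call was lost with gates of 60%, TMM scaling, means over cells and without the highest doublet scores, and kept with Seurat clusters. With the 90% hashtag limit it could not be compared in Egr2fl/fl mice. Hk3 in Ly6Chi monocyte-like cells was at 67.7, 32.5, 24.9 and 24.7 CPM, a ratio of 0.368 in Egr2fl/fl and 0.759 in Lyz2Cre/+.Egr2fl/fl mice, so that the ND Egr2fl/fl mouse stood apart from the other three. The Kupffer programme markers in these cells summed to 98.7, 59.2, 50.1 and 40.3 CPM, with all 6 above 0 but for Cd5l at 0 in the ND Lyz2Cre/+.Egr2fl/fl mouse, and their part was not tested.

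The other pairs stayed under the 1.5-fold rule in at least 1 genotype. In Ly6Chi monocyte-like cells none of the 10 was called higher (5.57% of all genes) or lower (4.03%). Slc2a1 there was 1.26 times as high on CDA-HFD in Egr2fl/fl and 3.11 times (interval 1.81 to 5.86) in Lyz2Cre/+.Egr2fl/fl mice, where the ND value rested on 13 counts. In Cd209a+ dendritic cell-like cells none was called higher (3.94%) or lower (2.27%). Hk2 in neutrophil-like cells was at 66.6, 20.2, 19.8 and 23.3 CPM, with the ND Egr2fl/fl mouse (37 counts) alone high. The 6 stress genes Hspa1a, Hspa1b, Dnajb1, Hsph1, Fos and Jun, induced when cells are handled or heated, were all above 0 and summed to 833 to 1706 CPM over the 4 classes on ND and to 2346 to 3949 CPM on CDA-HFD. Their part in the differences between diets was not tested.

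**Figure D5:**
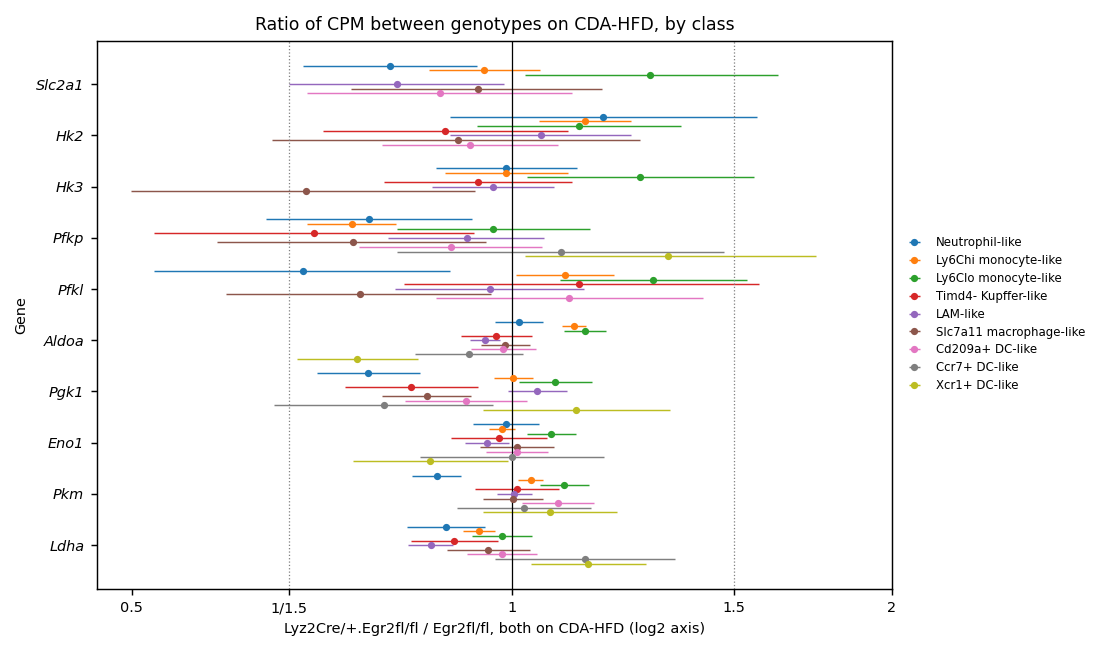
Ratio of CPM in the Lyz2Cre/+.Egr2fl/fl over the Egr2fl/fl mouse on CDA-HFD (x axis, log2) for each gene (y axis), with 1 coloured point per class and 95% intervals from counting. All pairs with enough counts lie between 0.684 and 1.33.

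Between genotypes on CDA-HFD none of the 80 gene and class pairs with at least 100 counts differed by 1.5-fold, beside 8.93% of all such pairs. Their ratios of Lyz2Cre/+.Egr2fl/fl over Egr2fl/fl ran from 0.684 (Pfkl in neutrophil-like cells, interval 0.521 to 0.893) to 1.33. In lipid-associated macrophage-like cells, where Egr2 was at 63.8 CPM in the Egr2fl/fl and 10.8 CPM in the Lyz2Cre/+.Egr2fl/fl mouse, the ratios were 0.952 for Aldoa, 1.05 for Pgk1, 0.955 for Eno1, 1.00 for Pkm and 0.863 for Ldha (interval 0.828 to 0.899). In Slc7a11 macrophage-like cells they were 0.988 for Aldoa (interval 0.945 to 1.03), 0.856 for Pgk1 (interval 0.789 to 0.929), 1.00 for Pkm and 0.687 for Hk3 (interval 0.4996 to 0.936). In Timd4- Kupffer-like cells, where Egr2 was at 47.3 and 2.41 CPM, Hk3 was at 83.6 and 78.5 CPM and Aldoa at 570 and 554 CPM. These intervals bound the counting error of 2 mice and not the spread between mice.

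On ND 3 of 38 pairs differed by 1.5-fold, beside 11.1% of all such pairs, and all 3 were lower in the Lyz2Cre/+.Egr2fl/fl mouse. They were Hk3 in Ly6Chi monocyte-like cells at 0.480 times (interval 0.339 to 0.667), where the Kupffer programme markers stood at 98.7 and 59.2 CPM, Pfkp in the same cells at 0.620 times (interval 0.459 to 0.827) and Pfkp in Cd209a+ dendritic cell-like cells at 0.589 times (interval 0.394 to 0.869). In Timd4+ Kupffer-like cells, the deepest class on ND, Hk3 was 0.704 times (interval 0.671 to 0.738) and Eno1 1.16 times (interval 1.11 to 1.21) as high, while the other 8 genes lay between 0.792 and 1.11. Hepatocyte markers in these cells summed to 47.9 CPM in the Egr2fl/fl and 124 CPM in the Lyz2Cre/+.Egr2fl/fl mouse (4 of 5 above 0, Alb at 0). Erythroid markers summed to 482 and 265 CPM (all 4 above 0), and the part of these markers was not tested. The comparisons of genotype and of diet share their mice, so that the ND Egr2fl/fl value of Hk3 in Ly6Chi monocyte-like cells enters both.

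Of 28 other glycolysis and glucose transport genes 27 were in the matrix. Those called the same way in the largest number of classes were lower than in the other cells, Slc2a3 in 7 of 10 classes, Eno3 in 6, and Ldhb and Slc16a3 in 5 each. The other cells include neutrophil-like cells, where Slc2a3 and Slc16a3 were called higher. They also include Ly6Clo monocyte-like and Ccr7+ dendritic cell-like cells, where Eno3 was called higher. The share of all genes called lower in as many classes was not computed. Over all cells 8 of the 23 glycolysis and transport genes of this list with enough counts were higher on CDA-HFD in both genotypes (7.04% of all genes) and 2 lower (15.8%). Within the 4 classes 6 of 48 pairs were higher (3.94% to 9.08% of all genes by class) and 1 lower (2.27% to 5.95%). Between genotypes 3 of 50 pairs differed by 1.5-fold on ND (11.1% of all pairs) and 16 of 112 on CDA-HFD (8.93%), where Ldhb, which favours the turn of lactate into pyruvate, was lower in Lyz2Cre/+.Egr2fl/fl in 3 classes (0.553 times in lipid-associated macrophage-like, 0.557 in Timd4- Kupffer-like and 0.592 in Slc7a11 macrophage-like cells). Aldoc was also lower in 3 of 9 classes. In the 3 classes with Ldhb lower, in the same order, the 6 stress genes summed to 2373, 3021 and 2359 CPM in the Egr2fl/fl mouse. In the Lyz2Cre/+.Egr2fl/fl mouse they summed to 1593, 1626 and 1820 CPM, and their part was not tested. In Slc7a11 macrophage-like cells 5 of 23 other glycolysis and glucose transport genes were higher (3.68% of all genes) and 7 lower (16.4%) than in the other cells. Those higher included, chosen after their values were seen, Tpi1 (1.69 and 1.75 times), Gapdh (1.62 and 1.58 times) and Pgam1 (1.97 and 2.01 times), which sit between Aldoa and Eno1 in the pathway. Neutrophil-like cells had 4 of 18 higher (8.91%) and 6 lower (28.4%), with Slc16a3, the lactate exporter MCT4, at 14.5, 14.0, 12.1 and 9.88 times the level of the other cells. Ccr7+ dendritic cell-like cells had 3 of 23 higher (8.51%) and 12 lower (26.5%). One of the 3, named after its value was seen, was Pfkfb3, which makes the activator of phosphofructokinase, at 9.81 and 10.02 times. Eno3, the muscle enolase, was at 25.4, 23.8, 5.48 and 7.02 times in Ly6Clo monocyte-like cells and held 61.8% of the counts of Eno1, Eno2 and Eno3 in Ccr7+ dendritic cell-like cells of either mouse, where Eno1 was lowest.

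Of the 12 hypoxia genes, 3 of 11 were higher in Slc7a11 macrophage-like cells than in the other cells (3.68% of all genes) and 1 lower (16.4%), with Vegfa, a growth factor for vessels, at 3.49 and 3.58 times. Within the 4 classes 10 of 33 hypoxia gene and class pairs were higher on CDA-HFD (3.94% to 9.08% of all genes by class) and 2 lower, Ndrg1 in neutrophil-like and Ero1l in Cd209a+ dendritic cell-like cells (2.27% to 5.95%). Among those higher Ankrd37, a known HIF-1 target, was at least 1.5-fold higher in both genotypes in all 4 classes, with ratios from 1.55 (interval 0.912 to 2.80) to 4.90 (interval 2.54 to 10.9). Over all cells 4 of 12 were higher on CDA-HFD (7.04%) and 2 lower (15.8%). Of the 7 pentose phosphate pathway genes, which draw glucose-6-phosphate off for NADPH, G6pdx (1.54 and 1.86 times) and Pgd (2.05 and 2.17 times) were higher in Slc7a11 macrophage-like cells (2 of 7, beside 3.68% of all genes), and both were lower in all 3 dendritic cell-like classes (10.9% to 26.5% of all genes). Of the 10 pyruvate entry genes none of the 9 tested was higher (7.04% of all genes) or lower (15.8%) on CDA-HFD over all cells, a count near these shares. Among them Mpc1, a part of the mitochondrial pyruvate carrier, was lower in Timd4+ Kupffer-like cells (0.335 and 0.385 times, beside 16.6% of all genes) and lower on CDA-HFD in neutrophil-like cells (0.531 and 0.581 times, beside 5.61%). Of the 6 gluconeogenesis genes 5 were in the matrix and only 1 had enough counts, Pck2, which was lower in Slc7a11 macrophage-like (0.539 and 0.349 times, beside 16.4% of all genes) and Ccr7+ dendritic cell-like cells (0.657 and 0.446 times, beside 26.5%).

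The likeness of levels was read over the 30 class and mouse groups of at least 50 cells, which share a library and, in part, a mouse, as Pearson's r of log2(CPM + 1). Among the 10 genes Aldoa and Pkm were the most alike (r = 0.904) and Hk2 and Pfkp the least (r = -0.498). Of all 11841 genes with at least 500 counts, the one most like Aldoa was Fth1, the ferritin heavy chain (r = 0.931). Pgk1 was nearest to F10 (r = 0.930), which is one of the markers of the Slc7a11 macrophage-like class, and to Gapdh (r = 0.924). Pkm was nearest to Clec4e (r = 0.913), the receptor Mincle, and Hk3 to Tmbim6 (r = 0.899). Eno1 was nearest to Eno1b (r = 0.975), with which it may share reads. The first genes for Slc2a1 (Tbc1d23, r = 0.825), Pfkl (Tpi1, r = 0.780), Ldha (Agpat5, r = 0.758), Hk2 (Nckap5l, r = 0.755) and Pfkp (Gm19220, r = 0.750) were less alike.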

How the data were processed

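The authors deposited raw counts per gene and barcode for the mRNA library and raw hashtag counts per barcode, made with the TAS-Seq pipeline on the GRCm38 transcriptome (Ensembl release 101), and named each barcode by its hashtag or as a doublet. The sources used here do not say if the counts are of reads or of molecules. The submitters' processing notes name R 4.2.1 and Seurat 4.1.1. In 34 genes no value between 0 and 5 occurred. None is among the 10, but 4 are gate markers (S100a9, Retnlg, Cd5l and Mmp12), so a low count of these could not place a cell in its class.

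Barcodes of the 4 mice with at most 25% mitochondrial counts (15384 cells) were kept, and 1392 named doublets (8.29%) were left out. Doublets of 1 mouse could not be named by hashtag. Scrublet at its own threshold marked 58 cells (0.377%), too few to have worked, so the 5% with the highest scores were left out as an alternative. The 7 hashtag columns of no mouse of this series were not used. Of 79 gate markers 3 were not in the matrix. Counts were summed per class and mouse and given as CPM. With 1 mouse per group no test was run and no p-value is given (a fit with diet and genotype as additive terms was not made), replicates could not be compared, and a gene was called at 1.5-fold with at least 100 counts over both groups of each comparison, in every mouse or genotype compared.

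Named were the 10 genes in every class of at least 50 cells. Of the other lists, counts past the fold and up to 4 genes called the same way in the largest number of classes were named. Values of these genes in single classes, and those of Tpi1, Gapdh, Pgam1, Pfkfb3, Vegfa, Ero1l and Pck2, were picked after they were seen. Named too were, for each of the 10, the genes most like it. The 10 genes and all lists were chosen with earlier results of these data known. Alternatives covered the mitochondrial limit, stricter gates, Seurat clusters, a hashtag purity of 90%, doublet scores, edgeR TMM scaling, totals without mitochondrial, ribosomal and zeroed genes, means over cells, count minimums of 1 and 500 and a fold of 2. Leaving out cycling cells (at least 3 of 6 markers) and summing Eno1 with Eno1b were chosen after seeing the data. Scripts were tested on simulated data. Python 3.11.15, NumPy 2.4.6, SciPy 1.17.1, pandas 2.3.3, matplotlib 3.10.9, R 4.3.3, edgeR 4.0.16 and Seurat 5.3.0 were used. Gene coordinates are of GRCm38 (GENCODE M21).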

Additional observations from a re-analysis of the deposited data

Results flagged for a closer look

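Aldoa in Ly6Chi monocyte-like cells went opposite ways with diet in the 2 genotypes. It was 0.931 times as high on CDA-HFD as on ND in Egr2fl/fl (interval 0.886 to 0.979) and 1.42 times in Lyz2Cre/+.Egr2fl/fl mice (interval 1.31 to 1.54), from 633, 465, 589 and 660 CPM, where the ND Lyz2Cre/+.Egr2fl/fl mouse was lowest. With 1 mouse in each group the difference between the 2 effects was not tested.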

How the results depend on the processing

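Of 723 single ratios recomputed under the alternatives 593 stayed within their counting interval and 130 moved out of it. Of the ratios at least 1.5-fold apart in the main setting none changed direction. For ratios nearer to 1 a change of direction was not counted. Of 96 recomputed counts of calls 28 moved by more than 1.5 times, and the cause was not tested. Within classes 1 pair was higher on CDA-HFD. That count was 2 with stricter gates, TMM scaling, totals without mitochondrial, ribosomal and zeroed genes, and means over cells, and 0 with Seurat clusters, a hashtag purity of 90%, a fold of 2 and without cycling cells. The pair lower on CDA-HFD became 3 with Seurat clusters and 0 with stricter gates, a hashtag purity of 90% (where neutrophil-like cells could not be compared in both genotypes), without the highest Scrublet scores, TMM scaling, means over cells and a fold of 2. The 3 pairs that differed between genotypes on ND became 9 at a minimum of 1 count, 0 at 500 counts and 1 at a fold of 2. The 0 pairs on CDA-HFD became 2 with stricter gates, Seurat clusters, without the highest Scrublet scores, with means over cells and at a minimum of 1 count, and 1 with TMM scaling and without cycling cells. A fold of 2 left 4 of the 7 pairs higher than in other cells, 6 of the 16 lower, and 0 of the 4 genes higher on CDA-HFD over all cells. TMM scaling raised the median ratio of all genes between diets by 0.107 to 0.254 on the log2 scale, and moved it between classes by -0.172 to 0.0945. No paired analysis was possible because the mice carried no replicate numbers shared between groups. Classes under 50 cells on a diet, and genes under 100 counts, could not be compared.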

Other observations

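Among Xcr1+ dendritic cell-like cells of the CDA-HFD Lyz2Cre/+.Egr2fl/fl mouse, 23 cells had counts of at least 3 of 6 cell cycle markers and 80 did not. Ldha was 1.65 times (interval 1.47 to 1.85) and Pgk1 1.68 times (interval 1.39 to 2.03) as high in the cycling cells, while Aldoa was 0.553 times (interval 0.464 to 0.657) as high. Hk2 stood at 3 counts in the cycling cells, or 0.0988 times (interval 0.0199 to 0.302) the level of the others. Aldoa was also lower in cycling Cd209a+ dendritic cell-like cells of both CDA-HFD mice, at 0.482 and 0.360 times, where Ldha was at 1.07 and 0.881 times, Pgk1 at 0.9003 and 1.19 times and Pkm at 1.04 and 1.16 times. Hk2 there was at 0.937 and 0.391 times, and in cells of no class of the same mice at 0.479 and 1.02 times. In lipid-associated macrophage-like cells of the CDA-HFD Lyz2Cre/+.Egr2fl/fl mouse Hk2 was at 0.898 times. These values compare cells of 1 mouse each, with no replicate.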
